A study of Homo sapiens with 21 samples.

Results

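The genes that encode the proteins of the cytosolic ribosome were followed across 6 doses of coumarin and an untreated control. Protein-coding rows of the gene table were taken by name: RPSA, RPLP0, RPLP1, RPLP2, and RPL or RPS followed by a number, with the suffixes used for copies and paralogs. Rows on the Y chromosome and the RPS6K kinases were left out. The rule gave 84 genes of the 58735 in the table (19951 of them protein-coding), 52 named for the large subunit and 32 for the small subunit. It used names and no measured value. Of the 84, 83 held enough counts to be tested among 16699 genes. The one left out by the count filter was RPL10L, a paralog of RPL10 with a total of 1 count over all libraries. RPL36AL and FAU also encode ribosomal proteins but fall outside the naming rule, and they are described separately.

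The cytosolic ribosome is assembled from a large and a small subunit, each built of ribosomal RNA and many small basic proteins. Most of these proteins are present once per ribosome, so their genes are expressed at high and similar levels in most cells. Their mRNAs are known for a terminal oligopyrimidine tract, a run of C and T that begins at the cap, through which the mTOR kinase and the RNA-binding protein LARP1 control their translation and stability. In liver, ribosome production is known to follow nutrient supply and growth.

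Cells labelled HepG2, an established human liver tumour line, were kept for 24 h in serum-free DMEM with coumarin at 0, 0.001, 0.01, 0.1, 1, 10 or 100 µM. Coumarin is a benzopyrone made by plants. The control received the same serum-free medium, so serum withdrawal was shared by every group. There were 3 libraries per group and 21 in all, which the series' design text calls biological replicates. Whether they came from separate cultures is not stated, and the p-values measure the spread between these libraries.

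Libraries held 26984563 to 43375429 gene counts, of which 2137665 to 3704355 fell on the 84 ribosomal protein genes. The edgeR common biological coefficient of variation was 4.49%. Defining liver transcripts were near the floor: of 11 hepatocyte markers all were below 1 CPM (gene counts scaled to effective library size), with ALB, TTR, APOC3 and FGB at 0 in every library and a summed level of 0 to 0.380 CPM. The summed level of 6 biliary and other epithelial markers, nearly all of it KRT7, was 738 to 772 CPM in control and 749 to 767 at 100 µM. The other 5 of these markers were below 1 CPM. For 7 fibroblast markers, led by COL3A1, the sum was 1277 to 1344 CPM in control and 1062 to 1101 at 100 µM. Of these, 3 were below 1 CPM, with PDGFRA at 0. The sums of endothelial markers (5 genes) and leukocyte markers (6 genes) stayed at or below 3.27 and 4.68 CPM. Whether the cells are HepG2, as labelled, was not tested. The part of the fibroblast transcripts in the ribosomal protein result was not tested. In bulk RNA, fewer cells of a type and less RNA per cell cannot be told apart.

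The library total used for the deposited FPKM (fragments scaled by gene length and library total) exceeded the summed gene counts by 1.04% to 8.17% of that total. The excess was 3.91%, 8.03% and 8.17% in control replicates 1, 2 and 3, and control replicates 2 and 3 were the highest of the 21 libraries. Comparisons with 0 µM rest on these controls. The mean of the 12 libraries at 0.001 to 1 µM was therefore used as an added reference. It was drawn up with earlier results of these data known, and both comparisons share the libraries at 100 µM.

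Sequence around the transcription start was taken from RefSeq (GRCh38.p14), which matched 67 of the 84 genes. The windows of 30 bases below run 5′ to 3′ on the gene's strand, with the RefSeq start at base 16 and the longest pyrimidine run in capitals. They are shown because the pyrimidine tract is the family's shared feature, and for genes with the smallest p or the largest rises (RPL36 to RPS29) beside RPL22 and RPL3, which did not pass the test.
RPL36 (chr19:5690280-5690309, plus strand): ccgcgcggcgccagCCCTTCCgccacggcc
RPLP2 (chr11:809952-809981, plus strand): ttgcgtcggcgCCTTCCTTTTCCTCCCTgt
RPL14 (chr3:40457324-40457353, plus strand): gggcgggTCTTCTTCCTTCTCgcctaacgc
RPL38 (chr17:74203663-74203692, plus strand): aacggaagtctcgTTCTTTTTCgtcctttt
RPL37A (chr2:216498829-216498858, plus strand): gcaccgcgTCTCTTCCTTTCTgggctcgga
RPS27 (chr1:153990747-153990776, plus strand): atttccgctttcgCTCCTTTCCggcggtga
RPS28 (chr19:8321481-8321510, plus strand): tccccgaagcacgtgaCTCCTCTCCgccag
RPS29 (chr14:49598696-49598725, minus strand): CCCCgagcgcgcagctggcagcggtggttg
RPL22 (chr1:6199581-6199610, minus strand): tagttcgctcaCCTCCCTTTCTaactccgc
RPL3 (chr22:39319609-39319638, minus strand): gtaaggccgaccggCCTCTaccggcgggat
A run of at least 8 pyrimidines within 20 bases on either side of the start was present in 53 of 67 genes (79.1%). Among all 27305 RefSeq promoters the share was 17.3%, and among 10529 tested genes outside the family it was 15.9%. The letters CTTTCC on the gene's strand in the same window were found in 16 genes (23.9%), against 1.97% of all promoters. The motif CCGGAAG, the core bound by ETS factors, was searched on both strands from 250 bases before to 50 bases after the start. It was present in 23 genes (34.3%), against 10.7% of all promoters and 18.7% of the tested genes outside the family. In the windows of 30 bases shown, RPL36, RPL3 and RPS29 have short runs, of 7, 5 and 4 bases, while RPLP2 has 17 and RPL22 has 11. The search within 20 bases on either side is wider, so a short run here does not place a gene outside the 53. The 53 genes with a run of at least 8 had a median log2 fold change at 100 µM against 0 µM of 0.22, and the 13 tested genes with a shorter run had 0.18. Against 0.001 to 1 µM the medians were 0.21 and 0.18. The RefSeq start need not be the cap used in these cells, which was not measured. These groups therefore need not separate genes with and without a tract at the cap.

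Levels between genes were compared per length, in the deposited FPKM. The median of the 84 genes was 274 FPKM over all libraries. Of them 65 exceeded 100 FPKM, 4 exceeded 1000 and 2 were under 1. The highest level was that of RPL13A at 1466 FPKM, followed by RPS12 at 1244 (these were picked out after their values were seen). RPL3L, a paralog of RPL3 known from muscle, was at 0.111 FPKM. RPL3, which lies near the peptidyl transferase centre, was at 554 FPKM, RPL38 at 121.5 and RPS29 at 44.6. The order of neighbours in such a list depends on the table's gene length, which counts all exons of a gene: RPS29 is listed with 9845 bases for a coding sequence of 168.

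The family as a whole took a larger share of all gene counts at 100 µM than at any other dose. The summed share was 8.47%, 7.98% and 8.05% in the 3 control libraries, with a mean of 8.17% ± 0.268 (SD, n = 3). At 100 µM it was 9.14%, 9.22% and 9.19%, with a mean of 9.18% ± 0.0432. All 3 libraries at 100 µM lay above the other 18, whose highest value was 8.62% (10 µM replicate 1) and whose lowest was 7.60% (0.001 µM replicate 1). The means at 0.001, 0.01, 0.1, 1 and 10 µM were 7.92% ± 0.276, 8.06% ± 0.0600, 8.12% ± 0.212, 8.32% ± 0.152 and 8.36% ± 0.384, and these groups overlapped the control. No test is given for this sum. With effective library sizes (TMM factors) the means were 7.95% ± 0.451 in control and 9.21% ± 0.00825 at 100 µM.

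**Figure D1:**
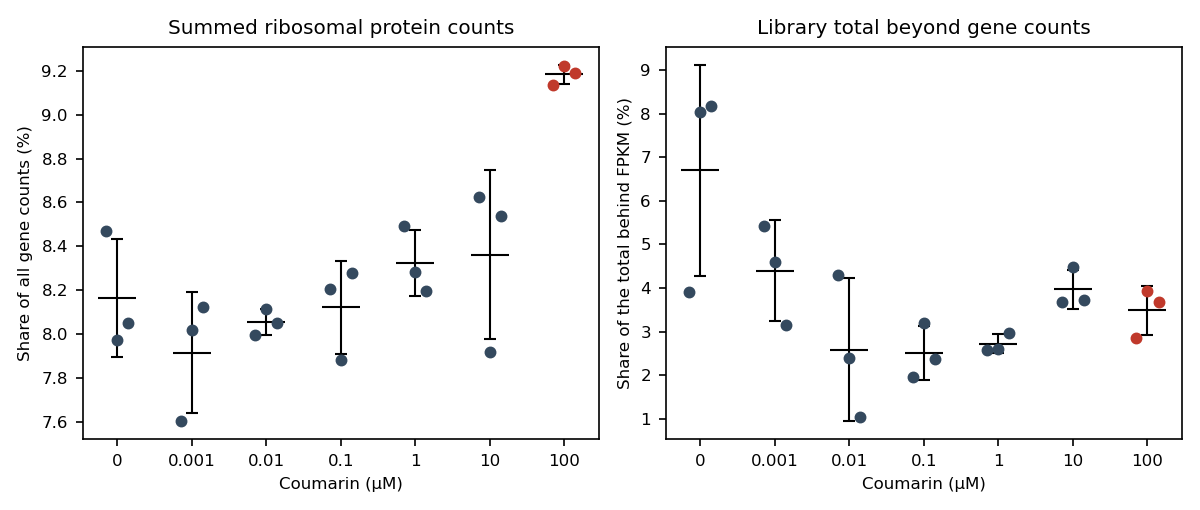
Left, summed counts of the 84 ribosomal protein genes as a percent of all gene counts, by coumarin dose; right, the percent of the library total behind FPKM that lies beyond the summed gene counts. Points are libraries, bars are the mean ± SD (n = 3), and the axes do not start at 0. The 3 libraries at 100 µM reach 9.14% to 9.22% on the left, above the other 18. On the right, control replicates 2 and 3 stand at 8.03% and 8.17%.

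At 100 µM against 0 µM, 63 of the 83 tested genes rose and 0 fell (edgeR quasi-likelihood test, adjusted p under 0.05). Of all 16699 genes, 14.4% rose and 12.9% fell in this comparison. At an unadjusted p under 0.05 the counts were 66 higher and 0 lower, and DESeq2 and limma each called 63 higher and 0 lower. The rises were small. The median log2 fold change was 0.20 (1.15-fold), the middle of the distribution ran from 0.15 to 0.30 (quartiles), and 79 genes had a positive value, while the median of all genes tested was -0.01. In 64 of the 83 genes all 3 libraries at 100 µM lay above all 3 controls, which held for 20.9% of all genes tested. With control replicate 1 as the only control 13 genes rose (median 0.12), and with the excess share of the library total as a covariate 20 rose (median 0.10). That share averaged 6.70% in control and 2.51% to 4.40% in the treated groups. Control replicate 1, at 3.91%, lay within the range of the treated libraries, and replicates 2 and 3 lay above it. The part of this share in the result was not tested.

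Against the mean of 0.001 to 1 µM, 66 of 83 genes rose and 0 fell, with 16.6% of all genes higher and 16.5% lower. At an unadjusted p under 0.05, 72 were higher and 0 lower, and DESeq2 called 68 higher and limma 64, with 0 lower in each. The median log2 fold change was 0.19, and 80 genes had a positive value. The genes moved more evenly against this reference of 12 libraries: the SD of the log2 fold change over the genes was 0.100, against 0.189 with 0 µM as reference. In 43 genes all 3 libraries at 100 µM lay above all other 18, which held for 7.66% of all genes. Against 10 µM, 35 genes rose (8.22% of all genes rose), with a median of 0.15.

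In all, 56 genes rose against both references, 10 against 0.001 to 1 µM alone and 7 against 0 µM alone. The other 10 tested genes passed against neither: RPL3, RPL3L, RPL13A, RPL22, RPL27, RPL31, RPS9, RPS10, RPS15A and RPSA (RPL13A, RPL27 and RPS9 are named after their values were seen). The subunits did not stand apart in these counts. Of 51 large-subunit genes 39 rose against 0 µM and 42 against 0.001 to 1 µM, with medians of 0.21 and 0.19. Of 32 small-subunit genes 24 rose against each reference, with medians of 0.20 and 0.20.

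**Figure D2:**
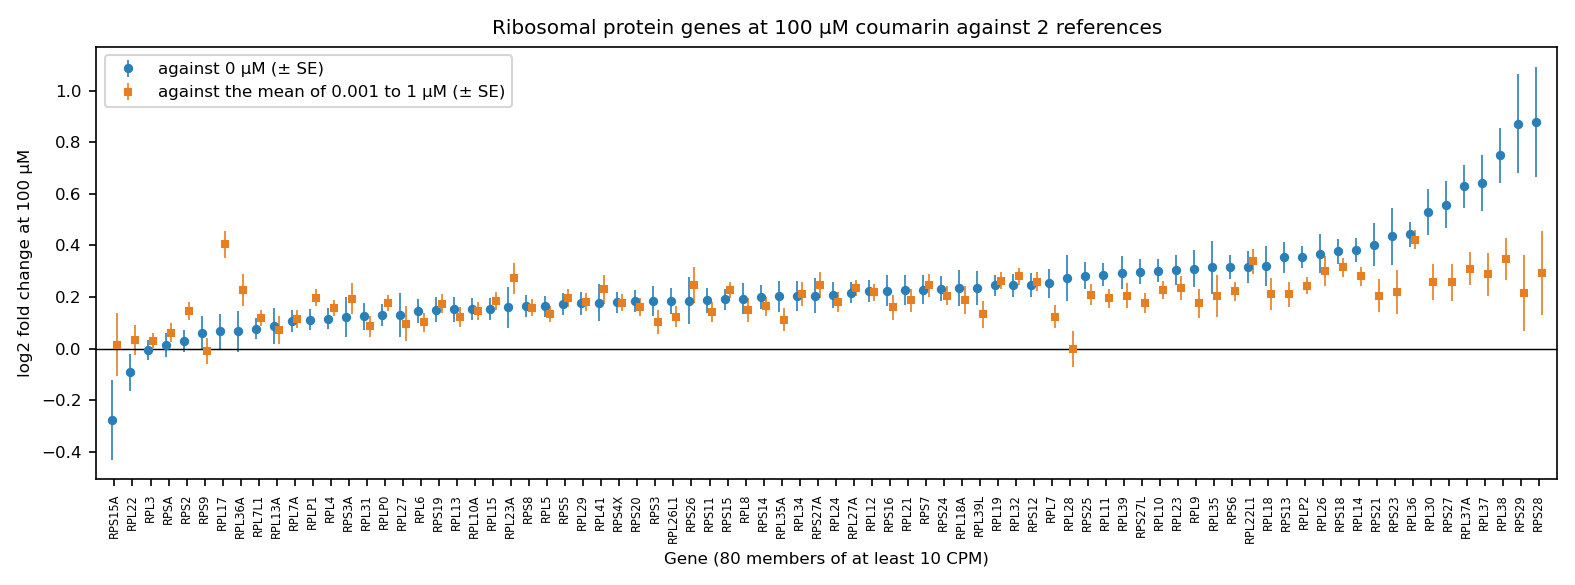
Log2 fold change at 100 µM for 80 of the 81 genes of at least 10 CPM, ordered by the change against 0 µM (circles), with the change against the mean of 0.001 to 1 µM (squares); bars are ± SE from edgeR. Most genes lie between 0.1 and 0.3 in both comparisons. The circles at the right end, up to 0.88, are above their squares, and RPL17 is the gene with a square near 0.40 and a circle near 0.07.

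Below 100 µM few of the genes passed the test. Against 0 µM, 1 of 83 passed at 0.001 µM (1.53% of all genes passed), 5 at 0.01 µM (5.86%), 10 at 0.1 µM (6.45%), 5 at 1 µM (2.01%) and 0 at 10 µM (2.62%) with the edgeR test. At 10 µM, 24 genes were higher and 4 lower at an unadjusted p under 0.05, and DESeq2 called 10 and limma 1. The medians were -0.03, 0.03, 0.02, 0.08 and 0.06 from 0.001 to 10 µM. Genes that rose were RPL28, RPL30, RPL37A and RPL38 at 0.01 µM, RPL7, RPL28, RPL30, RPL37, RPL37A, RPL38, RPS27 and RPS29 at 0.1 µM, and RPL11, RPL37A, RPL38 and RPS27L at 1 µM. RPL28, a large-subunit protein, was at 573 ± 48.3 CPM in control, 717 ± 34.3 and 730 ± 28.5 at 0.01 and 0.1 µM, 549 ± 17.4 at 10 µM and 693 ± 46.2 at 100 µM, and its change at 100 µM against 0.001 to 1 µM was -0.00. RPL38 rose by 0.40, 0.49 and 0.46 on the log2 scale at 0.01, 0.1 and 1 µM. RPS2, a protein of the mRNA entry site, fell by 0.15 at 0.1 µM (edgeR adjusted p = 0.0295), and 1 gene in place of 2 was lower there without control replicate 1 or without 0.1 µM replicate 1 or 2. These counts moved with single libraries: without control replicate 1 they were 8 at 0.01 µM, 14 at 1 µM and 10 at 10 µM, while without control replicate 2 or 3 they were 1, 0 and 0. At 0.1 µM the count was 2 without control replicate 2 and 3 without control replicate 3. Leaving out any 1 library of the dose itself gave 1 at 0.01 µM, 1 to 7 at 0.1 µM and 0 to 3 at 1 µM.

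**Figure D3:**
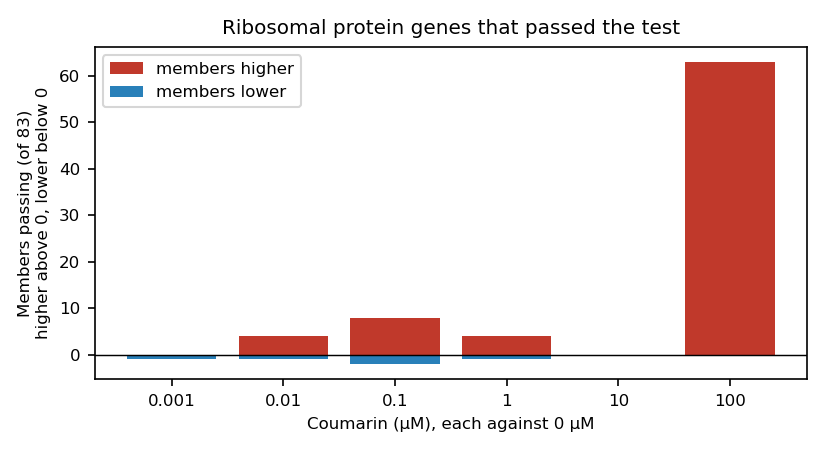
Number of the 83 tested ribosomal protein genes that passed the edgeR test at each dose against 0 µM, higher (above the line) and lower (below it). The bar at 100 µM holds 63 genes, and no other dose has more than 8 higher or 2 lower.

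A test of all 7 groups at once called 61 of the 83 genes, and 30.0% of all genes. The slope over log10 dose in the 18 treated libraries was positive in 80 genes and passed in 57, all rising, against 10.0% of the 16522 genes tested. The median slope was 0.04 per 10-fold dose on the log2 scale. Without the 100 µM libraries 4 genes had a rising call, so the count rests on the highest dose.

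RPL36, a small protein of the large subunit (ENSG00000130255, GRCh38 chromosome 19, 5674947 to 5691876), had the smallest p of the family against both references. Its level was 399, 362 and 352 CPM in control and 465, 514 and 532 CPM at 100 µM. The 3 libraries at 100 µM lay above the other 18, whose group means ran from 362 to 398 CPM. It rose by 0.44 ± 0.0482 (log2, SE) against 0 µM (edgeR adjusted p = 3.56e-09) and by 0.42 ± 0.0370 against 0.001 to 1 µM (edgeR adjusted p = 8.82e-12). RPL14 rose alike, from 1167, 1039 and 1060 CPM to 1440, 1410 and 1408 CPM, again above all other libraries, by 0.38 and 0.28.

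The largest rises against 0 µM were those of genes with a very short coding sequence, and these were much smaller against 0.001 to 1 µM. RPS29, a zinc-binding protein of the small subunit (ENSG00000213741, GRCh38 chromosome 14, 49570984 to 49599164), had 318, 286 and 294 CPM in control and 532, 540 and 570 CPM at 100 µM. At 0.001 µM the 3 libraries split, with 316, 361 and 593 CPM, and the means from 0.01 to 10 µM were 457 to 516 CPM. The control was thus below every other library except 0.001 µM replicate 1, and the highest library of all was 0.001 µM replicate 3. RPS29 rose by 0.87 ± 0.191 against 0 µM (edgeR adjusted p = 0.00314), and the change against 0.001 to 1 µM was 0.21 ± 0.147 (edgeR adjusted p = 0.303).

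RPS28 showed the same split, with 106, 93.6 and 105 CPM in control, 103, 126 and 210 CPM at 0.001 µM and 176, 201 and 183 CPM at 100 µM. Its change was 0.88 ± 0.214 against 0 µM (edgeR adjusted p = 0.00651) and 0.29 ± 0.163 against 0.001 to 1 µM (edgeR adjusted p = 0.195). The calls of RPS28 and RPS29 against 0 µM were lost with control replicate 1 as the only control, where the changes were 0.81 ± 0.336 and 0.78 ± 0.300, and with the covariate, where they were 0.66 and 0.57. Reads of RPS28 are uncertain, because pseudogene rows named after it held 676 CPM against 151 CPM for the gene itself, nearly all of it in RPS28P7. Those rows had 584 ± 26.6 CPM in control and 843 ± 64.7 CPM at 100 µM. With pseudogene counts added, RPS28 rose by 0.58 against 0 µM and by 0.34 against 0.001 to 1 µM (edgeR adjusted p = 0.000329 and 0.00223).

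RPL38, a large-subunit protein (ENSG00000172809, GRCh38 chromosome 17, 74203582 to 74210655), had 384, 348 and 360 CPM in control and 569, 618 and 648 CPM at 100 µM. Here the libraries at 100 µM lay above all other 18, and the change passed against both references, by 0.75 ± 0.106 (edgeR adjusted p = 7.67e-05) and 0.35 ± 0.0815 (edgeR adjusted p = 0.00387). RPL37A also passed against both, at 0.63 (from 754 ± 42.9 to 1165 ± 41.8 CPM) and 0.31. RPL37 and RPS27, both zinc-binding proteins, rose by 0.64 and 0.56 against 0 µM and by 0.29 and 0.26 against 0.001 to 1 µM. RPL30 rose by 0.53 and 0.26. The calls of RPL37, RPS27 and RPL30 against 0.001 to 1 µM were lost without 100 µM replicate 3 (that of RPL37 also without 100 µM replicate 2).

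There were 11 tested genes with a coding sequence of at most 300 bases: RPL37, RPL37A, RPL38, RPL39, RPL39L, RPL41, RPS21, RPS27, RPS27L, RPS28 and RPS29. Against 0 µM their median log2 fold change was 0.11 at 0.001 µM, 0.31 at 0.01 µM, 0.40 at 0.1 µM, 0.35 at 1 µM, 0.28 at 10 µM and 0.56 at 100 µM. The medians of the other 72 genes were -0.03, 0.02, 0.00, 0.07, 0.05 and 0.19. Against 0.001 to 1 µM the medians at 100 µM were 0.23 and 0.19. The 264 other tested genes with at most 300 coding bases had medians of 0.07 and 0.07 at 100 µM against the references. The short genes also varied more between replicates: the median within-group SD of log2 CPM was 0.108, against 0.0728 in the other 72 and 0.0981 over all genes tested.

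By library, the median deviation of the short genes from their own means was -0.22, -0.35 and -0.29 (log2) in the control replicates and -0.31 and -0.17 in 0.001 µM replicates 1 and 2. In 0.001 µM replicate 3 it was 0.07, and at 100 µM it was 0.21, 0.28 and 0.30. The low level of these genes was therefore shared by the controls and 2 libraries at 0.001 µM. Replicate 2 at 10 µM and replicate 2 at 0.01 µM were also below the mean, at -0.13 and -0.05. For the other 72 genes the medians were 0.04, -0.09 and -0.09 in control and 0.16, 0.16 and 0.15 at 100 µM. The excess share of the library total was 5.43% and 4.60% in 0.001 µM replicates 1 and 2 and 3.15% in replicate 3, and its part was not tested.

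**Figure D4:**
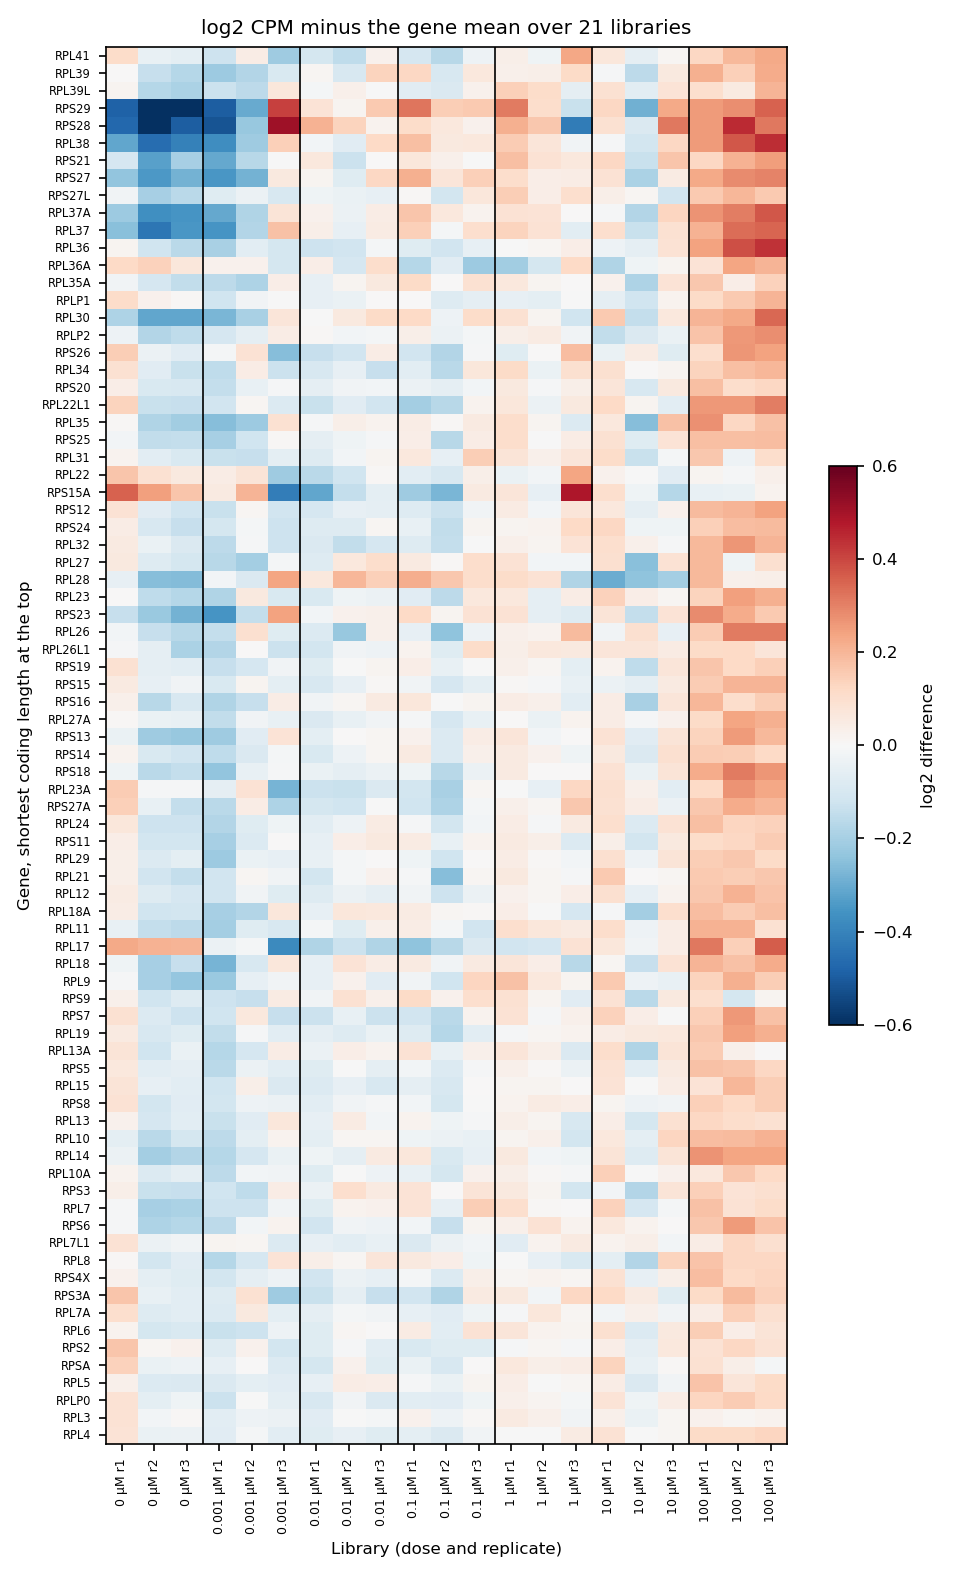
Log2 CPM of each gene in each library minus the gene's mean over the 21 libraries, for 80 of the 81 genes of at least 10 CPM, with the shortest coding sequence at the top; colour runs from -0.6 (blue) to 0.6 (red). The columns at 100 µM are red for most rows. Several rows near the top (RPS29, RPS28, RPL38, RPS27, RPL37A, RPL37) are blue in the controls and in 0.001 µM replicates 1 and 2, and RPS15A and RPL17 run against them.

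The size of the change followed coding length more closely than the table's gene length. Gene lengths of the 84 genes ran from 767 to 9845 bases (median 2992, against 4159 over all tested genes). Coding lengths ran from 75 to 1281 bases (median 454.5, against 1392 in the 12587 tested genes with a coding transcript). The lengths were themselves weakly related over the family (Spearman's rho 0.13). At 100 µM against 0 µM, rho between log2 fold change and gene length was -0.08 over 83 genes (0.03 over all genes tested), and against 0.001 to 1 µM it was -0.16 (all genes -0.06). With coding length rho was -0.49 and -0.42 (all genes -0.07 and -0.16). With the full length of the same coding transcripts (all their exons) rho was only -0.14 and -0.13 (all genes -0.07 and -0.14). The closer relation was thus not seen with full transcript length. In the lower doses against 0 µM rho with coding length was -0.18, -0.24, -0.30, -0.42 and -0.29 from 0.001 to 10 µM, and rho with gene length stayed between -0.02 and 0.08. These coefficients describe genes that share libraries, controls and depth, and they carry no test.

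Members at the ends of the gene-length scale show how little it ordered the change. The 3 shortest tested genes by gene length were RPS12 (767 bases), RPS21 (1023) and RPS27 (1035), which rose by 0.25, 0.40 and 0.56 against 0 µM (the call of RPS21 against 0.001 to 1 µM, 0.21, was lost without 100 µM replicate 2 or 3). The 3 longest were RPS29 (9845), RPS27L (9127) and RPL14 (8626), which rose by 0.87, 0.30 and 0.38. In 4 bins of gene length (up to 2000, 3000, 5000 and longer) the median was 0.25, 0.19, 0.17 and 0.23 against 0 µM and 0.21, 0.19, 0.19 and 0.18 against 0.001 to 1 µM. With each library's trend on gene length removed 66 genes rose against 0 µM, and with the trend on coding length removed 62 rose. After the latter step the short genes had a median of 0.50, the others 0.17, and rho with coding length was -0.33.

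**Figure D5:**
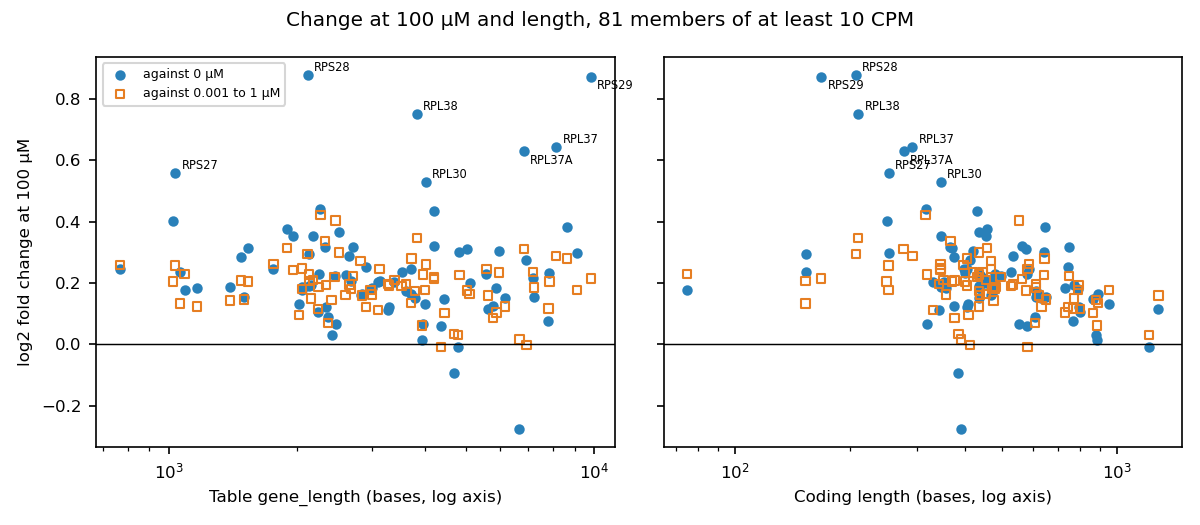
Log2 fold change at 100 µM of the 81 genes of at least 10 CPM against the table's gene length (left) and the coding length (right), both on log axes in bases, relative to 0 µM (circles) and to 0.001 to 1 µM (squares). On the left RPS27 and RPS29, at the short and the long end, both lie above 0.5. On the right the circles above 0.5 all sit at the short side.

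By role, the 4 genes of the stalk rose against both references, as did 56 of the 83 tested genes of the family. The stalk of the large subunit, which recruits translation factors, is built of RPLP0, RPLP1 and RPLP2 on a base that includes RPL12. RPLP2 (ENSG00000177600, GRCh38 chromosome 11, 809647 to 812880) had 833, 755 and 767 CPM in control and 958, 1019 and 1033 CPM at 100 µM. All libraries at 100 µM lay above the other 18. It rose by 0.35 ± 0.0428 (edgeR adjusted p = 2.51e-08) and by 0.24 against 0.001 to 1 µM. RPL12 rose by 0.22 and 0.22, RPLP0 by 0.13 and 0.18, and RPLP1 by 0.11 and 0.20. The calls of RPLP0 and RPLP1 against 0 µM were each lost without control replicate 2 and without control replicate 3. Each was also lost without 100 µM replicate 2 (RPLP1 also without replicate 3). With pseudogene counts added the call of RPLP1 against 0 µM was lost too (0.11, edgeR adjusted p = 0.0522).

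RPL5 and RPL11, which join 5S rRNA and can bind MDM2 when free of ribosomes, both rose. RPL11 had 840, 784 and 777 CPM in control and 1003, 1002 and 925 CPM at 100 µM, a rise of 0.29 (edgeR adjusted p = 5.78e-06) and of 0.19 against 0.001 to 1 µM. RPL5 rose by 0.16 and 0.13. Of the genes near the peptidyl transferase centre, RPL10 rose by 0.30 (1274 ± 44.6 to 1571 ± 13.6 CPM), RPL8 by 0.19 and RPL4 by 0.12. RPL3, another protein of this site, had 2930, 2727 and 2766 CPM in control and 2807, 2777 and 2796 CPM at 100 µM. These overlapped, with a change of -0.01 ± 0.0387 (edgeR adjusted p = 0.918) and of 0.03 ± 0.0305 against 0.001 to 1 µM. The call of RPL4 against 0 µM was lost without control replicate 2 or 3 or any library at 100 µM, and that of RPL8 without control replicate 2 or 3 or 100 µM replicate 1 (against 0.001 to 1 µM also without the latter).

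The rim of the exit tunnel, through which the new peptide leaves, was mixed. Against 0 µM RPL19 (0.24), RPL26 (0.37), RPL35 (0.31) and RPL39 (0.29) rose, and RPL17 (0.07), RPL22 (-0.09), RPL23A (0.16) and RPL31 (0.13) did not pass. Against 0.001 to 1 µM RPL17, RPL19, RPL23A, RPL26 and RPL39 rose. The call of RPL35 against 0 µM was lost without control replicate 2 or 3 or 100 µM replicate 1 or 3. With the excess share of the library total as a covariate, the calls of RPL26, RPL35 and RPL39 against 0 µM were lost.

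RPL17 (ENSG00000265681, GRCh38 chromosome 18, 49488453 to 49492523) was lower from 0.001 to 1 µM than in control. It had 40.8, 40.4 and 40.2 CPM in control, then fell by 0.34, 0.38, 0.38 and 0.25 on the log2 scale at 0.001, 0.01, 0.1 and 1 µM (edgeR adjusted p = 0.00593, 0.000666, 0.000725 and 0.0442). At 100 µM it was back at 43.5, 38.5 and 44.9 CPM, a rise of 0.40 ± 0.0530 against 0.001 to 1 µM (edgeR adjusted p = 1.69e-07). The 12 libraries from 0.001 to 1 µM lay between 26.8 and 37.0 CPM, below all controls, and the lowest was 0.001 µM replicate 3. The call at 0.001 µM was lost without that library. The call at 1 µM was lost without any 1 control library, without 1 µM replicate 1 or 2 and with the replicate number as a block. With the excess share of the library total as a covariate the calls at 0.01, 0.1 and 1 µM were lost. RPL17 overlaps the read-through gene RPL17-C18orf32, which had 0.0141 CPM. RPS15A, RPS10 and RPL36A also had higher log2 fold changes against 0.001 to 1 µM (0.02, 0.28 and 0.23) than against 0 µM (-0.28, 0.03 and 0.07).

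RPS15A, a small-subunit protein, also had its high values in control, 237, 220 and 208 CPM, against 180, 181 and 188 CPM at 100 µM. These did not overlap, but the change of -0.28 ± 0.154 did not pass (edgeR adjusted p = 0.214; 1.36e-05 in a fit of only the groups compared, where it fell by 0.28), and 1 µM replicate 3 had 260 CPM. It was 0.02 against 0.001 to 1 µM. RPL22 had 347, 329 and 322 CPM in control and 312, 307 and 316 CPM at 100 µM, a change of -0.09 ± 0.0733 (edgeR adjusted p = 0.393). Its paralog RPL22L1 rose from 35.1, 29.1 and 29.1 CPM to 38.3, 38.3 and 39.6 CPM, by 0.32 ± 0.0636 (edgeR adjusted p = 0.000184), and by 0.34 against 0.001 to 1 µM. All 3 libraries at 100 µM were above the other 18 for RPL22L1. Its call against 0 µM was lost with the excess share of the library total as a covariate. The difference between the paralogs was not tested.

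Other paralogs were lower in level and rose in part. RPS27L, known as a p53 target, rose from 77.9 ± 5.12 to 95.7 ± 1.70 CPM, by 0.30 (edgeR adjusted p = 7.36e-06) and by 0.18 against 0.001 to 1 µM. RPL26L1 rose by 0.18 and 0.12 and RPL39L by 0.23 and 0.13, and single libraries ended these calls. That of RPL26L1 was lost without control replicate 3 against 0 µM and without 100 µM replicate 1 or 2 against 0.001 to 1 µM. That of RPL39L was lost without control replicate 3 or 100 µM replicate 3 against 0 µM, and without 9 of the 15 libraries in turn against 0.001 to 1 µM. RPL7L1 changed by 0.08 against 0 µM without passing and rose by 0.12 against 0.001 to 1 µM. RPL3L, at 0.307 CPM in control and 0.278 at 100 µM, did not pass.

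In the small subunit's decoding centre and mRNA entry site, RPS15 rose by 0.19 and 0.23 against the references. RPS3 rose by 0.18 and RPS23 by 0.43 against 0 µM, and neither passed against 0.001 to 1 µM (0.10 and 0.22). The call of RPS3 was lost without control replicate 2 or 3 or 100 µM replicate 1 or 3. The calls of RPS3 and RPS23 against 0 µM were both lost with the excess share of the library total as a covariate. RPS2 did not pass against 0 µM (0.03) and rose by 0.15 against 0.001 to 1 µM. RPS6, the substrate of S6 kinase that serves as a readout of mTOR activity, had 1197, 1057 and 1068 CPM in control and 1344, 1437 and 1355 CPM at 100 µM. All libraries at 100 µM were above the other 18, and the rise was 0.32 ± 0.0480 (edgeR adjusted p = 2.50e-06) and 0.22 against 0.001 to 1 µM. RPSA, also known as the laminin receptor, was at 1672 ± 116 CPM in control and 1688 ± 59.9 CPM at 100 µM, a change of 0.01 ± 0.0469 that did not pass (edgeR adjusted p = 0.862).

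Genes of Diamond-Blackfan anaemia, an inherited failure of red cell production, included RPS19, RPS24, RPL35A, RPS26 and RPS10. RPS19, RPS24 and RPL35A rose against 0 µM, by 0.15, 0.23 and 0.20. Those of RPS19 and RPL35A were lost without control replicate 2 or 3 or 100 µM replicate 1 (RPL35A also without replicate 3). Against 0.001 to 1 µM RPS19, RPS24 and RPS26 rose, by 0.17, 0.21 and 0.25, and that of RPS26 was lost without 100 µM replicate 2 or 3. RPS10 was at 3.61 ± 0.0601 CPM in control and 3.69 ± 0.285 CPM at 100 µM and passed against neither. Its pseudogene rows held 10.3 CPM against 3.17 CPM for the gene, and those of RPL9 held 374 against 271, so the reads of both genes are uncertain. RPL9 (named after its values were seen) rose by 0.31 and 0.18 against the references, and with pseudogene counts added it passed against neither (0.10 and 0.11, edgeR adjusted p = 0.424 and 0.215). With them added RPS10 rose by 0.32 against 0 µM (edgeR adjusted p = 0.0493). In the family 9 genes had pseudogene rows over 10% of their own CPM, RPS2, RPL39, RPL10 and RPSA among them. With these rows added, RPL39 and RPL10 rose by 0.25 and 0.28 against 0 µM, and RPS2 (0.09) and RPSA (0.00) did not pass. On the X chromosome RPS4X rose by 0.18 and 0.18, and RPL36A (13.2 to 13.8 CPM) rose against 0.001 to 1 µM alone, by 0.23.

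RPS27A makes ubiquitin fused to a small-subunit protein, and it rose by 0.21 and 0.25, the call against 0 µM being lost without control replicate 2 or 3 or 100 µM replicate 2 or 3. FAU, which makes the small-subunit protein RPS30 from a fusion and lies outside the naming rule, rose by 0.33 (290 ± 17.9 to 364 ± 21.4 CPM, edgeR adjusted p = 3.58e-07) and by 0.32 against 0.001 to 1 µM. RPL36AL, a paralog of RPL36A, rose by 0.21 and 0.12.

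Other genes of translation known for pyrimidine tracts were set beside the ribosomal proteins, from a list drawn up with earlier results known. Of all genes tested, 14.4% rose and 12.9% fell against 0 µM, and 16.6% rose and 16.5% fell against 0.001 to 1 µM. Of 24 tested translation genes outside the naming rule, FAU and RPL36AL included, 10 rose and 2 fell against 0 µM, with a median of 0.12, and 9 rose and 1 fell against 0.001 to 1 µM, with a median of 0.05. Beside FAU, the smallest p-values were those of EIF2S3, a subunit of the initiator tRNA carrier, at 0.22, and EIF3K at 0.23. Of 18 genes of the mTOR and LARP1 axis 5 rose and 2 fell (median 0.01). SESN2, a leucine sensor that restrains mTOR, rose by 1.25 from 13.4 ± 0.524 to 31.8 ± 1.14 CPM. EIF4EBP1, the translation repressor that mTOR inactivates, rose by 0.77, and LARP1 by 0.21. Against 0.001 to 1 µM 5 of the 18 rose and 4 fell (median -0.01). The genes of this list that fell are not named here, and the list's medians were near 0 against both references.

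Genes that build the ribosome were read from the same kind of list, beside the 14.4% of all genes that rose and the 12.9% that fell. Of 25 chaperones and assembly factors 16 rose and 0 fell against each reference, with medians of 0.17 and 0.14. MRTO4, PES1 and RIOK1 rose by 0.33, 0.26 and 0.27 against 0 µM. Of 30 genes of RNA polymerase I, the nucleolus and pre-rRNA processing 19 rose and 1 fell against 0 µM (median 0.21), and 23 rose and 1 fell against 0.001 to 1 µM (median 0.17). NOLC1 and DDX21 rose by 0.45 and 0.44 and DKC1, the pseudouridine synthase, by 0.35. Of 7 p53 genes that answer to free ribosomal proteins, 1 rose, the cell-cycle inhibitor CDKN1A by 0.59, and ZMAT3 and MDM2 fell by 0.13 and 0.16 against 0 µM (median -0.01), while 2 rose and 2 fell against 0.001 to 1 µM (median -0.05). Of 7 tested transcription factors named for these promoters 4 rose and 0 fell against 0 µM (median 0.12), among them MAX by 0.27, MYC by 0.13 and SP1 by 0.12, and 2 rose and 0 fell against 0.001 to 1 µM.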

How the data were processed

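Messenger RNA was sequenced after selection on poly(dT) beads, per the labels' protocols, in 21 libraries grouped by the dose in their titles. The authors deposited whole-number counts for each gene, and FPKM, in which each library has its own total and each gene its length. The submitters' processing notes name HISAT2, DESeq2 and GRCh38, with no versions. How reads were assigned to genes, and with which strand setting, was not given in the sources used here. The deposited counts went into edgeR 4.0.16 (R 4.3.3): filterByExpr on the groups, TMM factors, and the robust quasi-likelihood F test, fitted to the 21 libraries together (residual degrees of freedom 14). P-values were two-sided (except over 7 groups) and adjusted by Benjamini-Hochberg over 16699 genes, or 16522 for the slope, with a threshold of 0.05. "Rose" and "fell" are used of what passed it. The SE is the log2 fold change divided by the root of F. CPM used TMM-scaled library sizes. Coding length is that of the principal transcript in GENCODE 29. Libraries of the same group differed by more than sampling noise (chi-square per degree of freedom 2.31 to 8.64), so none was counted as a duplicate. Depth limits precision for rows of few counts, such as RPL3L.

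Genes named are the 8 largest rises and 4 lowest changes at 100 µM against 0 µM at 10 CPM or more, those with a listed role, up to 3 each way with the smallest p at other doses, the 3 longest and 3 shortest, up to 3 per related list, and RPL36AL and FAU. Some genes this rule takes are counted in the totals but not reported here by name. The genes and lists were chosen with earlier results of these data known. Alternatives were RLE and upper-quartile scaling, TMM without these genes, other filters, a fit of only the groups compared, a block for the replicate number, a covariate (the excess share of the library total), removal of gene-length trends, control replicate 1 alone, an adjusted p under 0.01, DESeq2 1.42.0, limma 3.58.1 on log2 of FPKM plus 1 or 0.1, and leaving out each library. Chosen after seeing the data were removal of coding-length trends, leaving out the short genes, and adding pseudogene counts. The scripts were tested on simulated data.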

Additional observations from a re-analysis of the deposited data

How the results depend on the processing

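No gene fell at 100 µM against either reference under the settings run, except RPS15A against 0 µM in the fit of only the groups compared (-0.28, edgeR adjusted p = 1.36e-05, beside 63 genes that rose). Against 0.001 to 1 µM 51 to 72 genes rose (53 to 72 leaving out 1 library). Against 0 µM the count was 46 to 66 over the other settings and leaving out 1 library, but 13 with control replicate 1 alone and 20 with the excess share of the library total as a covariate. Of 38 named genes that rose against 0 µM, 11 kept the call under every setting run, and 29 of 38 did against 0.001 to 1 µM. The 11 were RPL10, RPL11, RPL14, RPL36, RPL37, RPL37A, RPL38, RPLP2, RPS6, RPS27 and RPS27L. With the covariate 23 of the 38 lost the call against 0 µM. Counts of 100 µM against 10 µM were 14 at an adjusted p under 0.01 and 18 to 34 leaving out 1 library (18 without 10 µM replicate 2, 21 without 100 µM replicate 3). Over 7 groups and for the slope, leaving out 1 library gave 46 to 69 in each, and the slope without 100 µM gave 4.

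At lower doses the counts were small and unstable. At 0.001 µM 0 to 1 passed leaving out 1 library. At 0.01 µM 2 passed with upper-quartile scaling or control replicate 1 alone, 15 with only the groups compared, 0 with the covariate, 1 at an adjusted p under 0.01, 10 with DESeq2, 8 with limma at either pseudocount, 11 with coding-length trends removed, 3 without the short genes, and 1 to 8 leaving out 1 library. At 0.1 µM 0 passed with the covariate, 2 with control replicate 1 alone, 3 at an adjusted p under 0.01, 5 without the short genes, and 1 to 13 leaving out 1 library. At 1 µM 2 passed with upper-quartile scaling or without the short genes, 12 with no filter or DESeq2, 11 with only the groups compared or with either length trend removed, 0 with the covariate or control replicate 1 alone, 1 at an adjusted p under 0.01, and 0 to 14 leaving out 1 library. At 10 µM 11 passed with no filter or coding-length trends removed, 10 with gene-length trends removed or DESeq2, 8 with only the groups compared, 1 with limma at either pseudocount, and 0 to 10 leaving out 1 library. The cause of these shifts was not tested.

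The replicate number as a block gave 64 genes at 100 µM against 0 µM, 67 against 0.001 to 1 µM and 1 at 10 µM. Of 63 pairs of libraries with the same number in different groups 1 had a correlation of deviations over 0.1 (mean -0.004). No shared expression by replicate number was thus seen. This cannot show whether libraries of the same number were grown or processed together. The difference of the summed share, 1.02 percentage points, was 1.26 with TMM-scaled totals, 0.711 against control replicate 1 alone and 0.922 to 1.17 leaving out 1 library. Spearman's rho of the change at 100 µM with gene length, -0.08, was -0.09 to -0.05 leaving out 1 library, -0.16 with 0.001 to 1 µM as reference and -0.49 with coding length.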
